A study of Mus musculus with 30 samples.

Results

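Cftr, Scnn1a, Scnn1b, Scnn1g, Ano1, Slc12a2, Slc26a9, Atp12a, Aqp3 and Aqp4, 10 genes through which epithelia move ions and water, were followed through mouse lung organoid cultures. They were taken as the rows of the count files that carry one of these symbols. Each symbol had exactly 1 row among the 55487 genes counted, so that all 10 members were found. Bulk RNA was sequenced from 30 libraries, 15 of re-sorted Epcam+ cells (epithelial libraries) and 15 of re-sorted Epcam- cells (fibroblast libraries).

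The cultures mixed 300000 primary CD31-CD45-Epcam+ lung cells of adult wild type C57BL/6J mice with as many CCL206 cells. CCL206 is an established mouse lung fibroblast line, here stopped from dividing with mitomycin C. All fibroblast libraries thus come from a single line, while the epithelial cells come from 4 mice. The paper used male and female mice, and the sex of these 4 is not given in the sources used here. Cultures were exposed for 72 hours to vehicle control, to 2 ng/ml TGF-β, to EC or to IPFc. EC, the exacerbation cocktail, held TNF-α, IL-1β, IL-6 and IL-8 according to the labels, with KC, the mouse counterpart, in place of IL-8 according to the paper. IPFc is a cocktail of factors raised in idiopathic pulmonary fibrosis, and by the labels it held TGF-β and TNFα, the chemokines CCL2 and IL-8, and the cytokines TSLP, IL-33, IL-13, IL-4 and IL-1β. The 8 groups held 4 libraries each, except the epithelial TGF-β group (3, mice 2 to 4) and the fibroblast vehicle group (3, mice 1, 3 and 4). The other 2 cultures of this layout were not analysed here. The mouse number in the labels pairs the cultures of a mouse across treatments and fractions.

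Airway and alveolar epithelium sets the depth of the liquid on its surface by moving salt, and water follows. Sodium is taken up through the epithelial sodium channel ENaC, and chloride is secreted through channels such as CFTR after entry across the basal side. Aquaporins pass water, and proton pumps set the pH of the liquid.

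The libraries held 5113828 to 20317181 counted reads (median 13843287), and 3 reads, the limit that a count of 0 allows, correspond to 0.148 to 0.587 counts in a library scaled to 1000000 reads (CPM), a limit that covers counting error only. Reads of the other fraction were present throughout. By the median ratio of marker genes between a library and the matching library of the other fraction, fibroblast RNA made up 6.29% ± 3.14 (SD, n = 4) of the epithelial vehicle libraries, 12.4% ± 7.43 with EC (n = 4), 10.8% ± 5.10 with IPFc (n = 4) and 28.7% ± 2.78 with TGF-β (n = 3). Epithelial RNA made up 18.7% ± 6.33 (n = 3) of the fibroblast vehicle libraries, 40.4% ± 8.99 with EC, 16.2% ± 8.21 with IPFc and 1.92% ± 1.06 with TGF-β (n = 4 each). These estimates assume that marker genes keep their level within a cell type and that the matching library holds its own fraction alone. The matching libraries were mixed too, so these percents, and all values after subtraction of a share, are approximate. As defining markers, Epcam was at 210.1 to 410.5 CPM in epithelial libraries and at 3.00 to 111 CPM in fibroblast libraries. In bulk RNA, fewer cells of a type and less RNA per cell cannot be told apart.

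Levels of different members can be compared only per length, here as CPM per kilobase of annotated exon. In epithelial vehicle libraries the order was Slc12a2 (51.6 ± 6.46, SD, n = 4), Aqp3 (51.2 ± 39.9), Ano1 (42.1 ± 3.74), Scnn1a (38.6 ± 6.11), Slc26a9 (16.2 ± 2.05), Aqp4 (5.21 ± 1.05), Cftr (3.60 ± 0.774), Scnn1g (3.56 ± 0.863), Scnn1b (1.39 ± 0.536) and Atp12a (0.184 ± 0.118). The first 4 overlapped in their ranges, as did Aqp4, Cftr and Scnn1g. Slc26a9 overlapped only with Aqp3, whose range ran from 3.48 to 98.3, and Scnn1b and Atp12a overlapped with no other member. With TGF-β the order began with Ano1 (55.3 ± 2.67, n = 3), and Scnn1b moved from the ninth to the fifth place (10.2 ± 1.42).

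**Figure D1:**
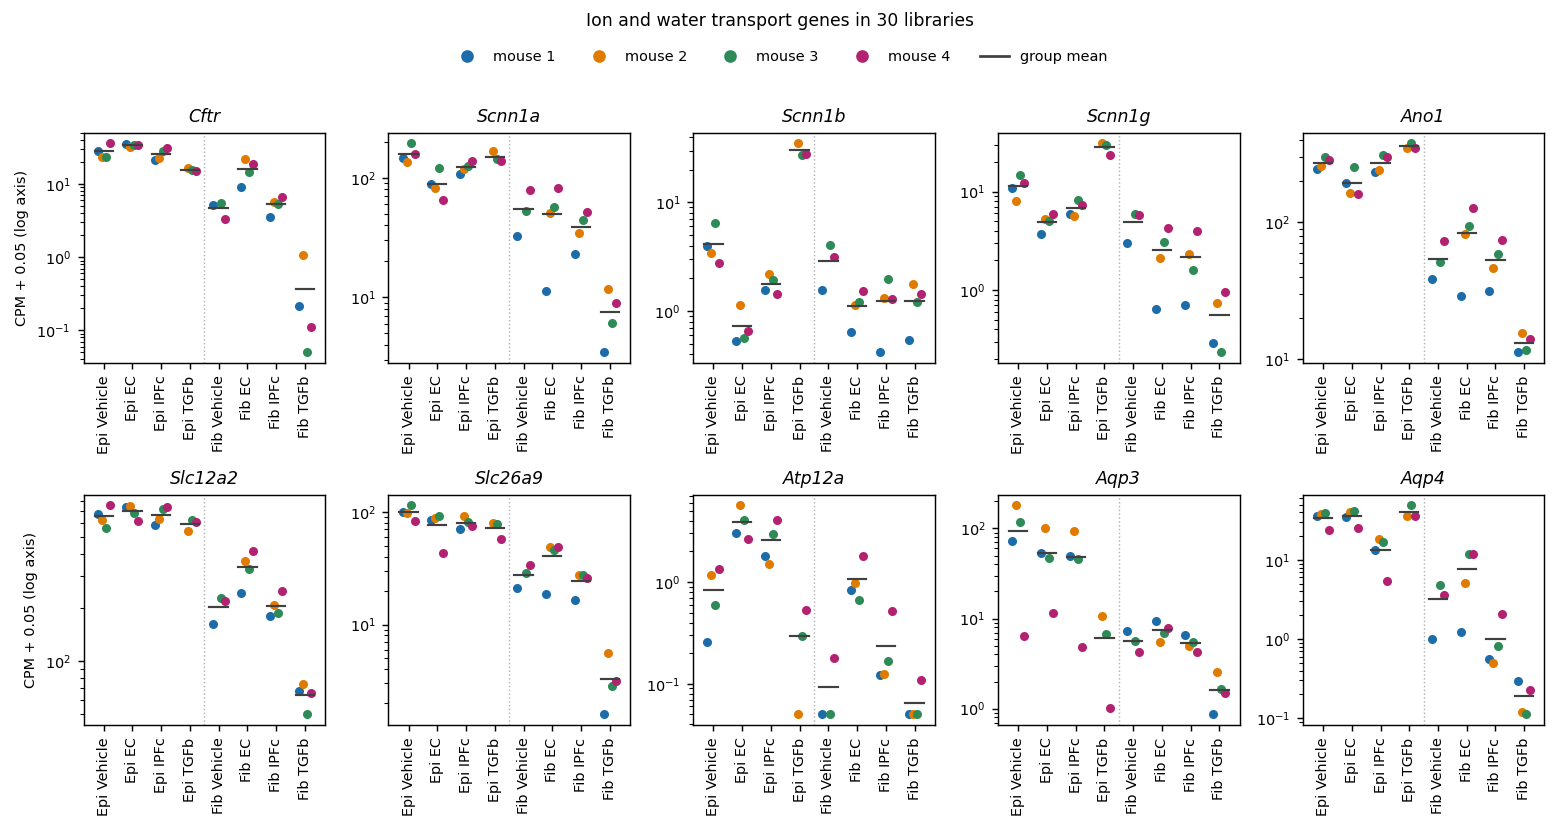
Expression of the 10 genes in each of the 30 libraries, as CPM plus 0.05 on a log axis. Points are libraries coloured by mouse, bars are group means, and the dotted line separates epithelial (Epi) from fibroblast (Fib) groups. Scnn1b and Scnn1g stand highest in the epithelial TGF-β libraries, and all 10 genes had a higher mean in the epithelial than in the fibroblast vehicle group.

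To see how the treatments changed these genes, each treatment was compared with vehicle within a fraction, with the mouse as a block, by the quasi-likelihood test of edgeR with Benjamini-Hochberg adjustment over all genes tested. A gene was called when its adjusted p was below 0.05, and fold changes are on the log2 scale with the SE of the fit. In the epithelial fraction, 5 of 10 members were called with EC (4 lower, 1 higher) where 4.67% of all tested genes were called. With IPFc 7 of 10 were called (6 lower, 1 higher) against 5.94% of all genes, and with TGF-β 8 of 10 (5 lower, 3 higher) against 41.7%. The median log2 fold change of the 10 members was -0.44 with EC, -0.35 with IPFc and -0.23 with TGF-β, beside -0.01, 0.00011 and 0.05 over all tested genes. The 3 comparisons share their vehicle libraries. Without mouse 4, EC called 9 of 10 members, where 1522 genes were called in all against 830 with every mouse. TGF-β called 5 of 10 without mouse 4. A fit that left out the mouse block called 1 member with IPFc (Aqp4), where 274 genes were called in all against 1065 with the block. For TGF-β, mouse 1 has no treated library here, so the block takes up its vehicle library.

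**Figure D2:**
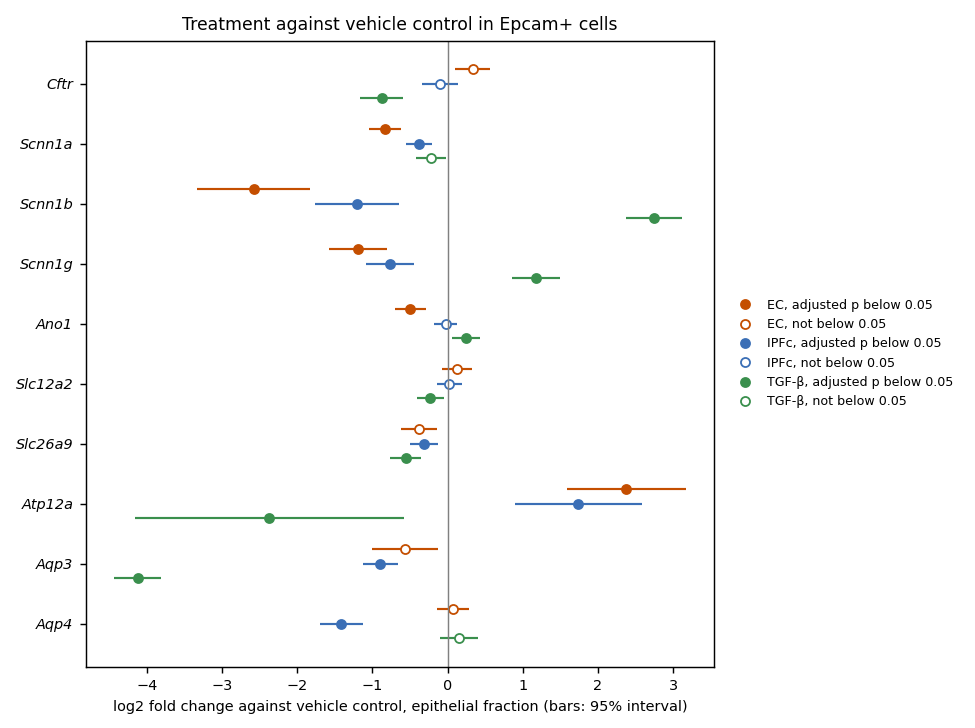
Log2 fold change of each member against vehicle control in the epithelial fraction, with 95% intervals, for EC, IPFc and TGF-β. Filled points have an adjusted p below 0.05. Scnn1b and Scnn1g lie left of 0 with both cocktails and right of 0 with TGF-β, Atp12a shows the opposite pattern, and Aqp3 with TGF-β lies farthest from 0.

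ENaC is built from 3 subunits, α (Scnn1a), β (Scnn1b) and γ (Scnn1g), and is the rate-limiting path of sodium uptake in airway and alveolar epithelium. The genes of the β and γ subunits are neighbours. In RefSeq (GRCm38.p6) Scnn1g spans chr7:121734420-121768482 and Scnn1b chr7:121865038-121918728, 96555 bases apart with 0 genes annotated between them, while Scnn1a lies on another chromosome (chr6:125314271-125344943). Because Scnn1b and Scnn1g moved together in the epithelial libraries, the bases just before each gene are shown, with those before Aqp3 (chr4:41092724-41098183), the member that fell most. They were read from RefSeq promoters (GRCm38.p6, 5′ to 3′ on the strand of the gene), at chr7:121864788-121865037 for Scnn1b, chr7:121734229-121734419 for Scnn1g and chr4:41098184-41098433 for Aqp3 on the reverse strand. The window before Scnn1g is shorter, 191 against 250 bases, since a longer transcript begins inside it. Capitals mark matches to NF-κB (GGGA, any 4 bases, CC).
Scnn1b: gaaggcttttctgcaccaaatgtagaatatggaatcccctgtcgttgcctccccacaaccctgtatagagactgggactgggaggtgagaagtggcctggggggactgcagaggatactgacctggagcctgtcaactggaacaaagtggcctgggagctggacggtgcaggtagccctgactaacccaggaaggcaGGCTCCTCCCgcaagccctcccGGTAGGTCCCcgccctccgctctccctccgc
Scnn1g: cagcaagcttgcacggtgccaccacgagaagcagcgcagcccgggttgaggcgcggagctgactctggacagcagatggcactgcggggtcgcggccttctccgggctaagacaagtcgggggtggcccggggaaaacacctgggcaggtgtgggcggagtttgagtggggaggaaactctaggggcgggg
Aqp3: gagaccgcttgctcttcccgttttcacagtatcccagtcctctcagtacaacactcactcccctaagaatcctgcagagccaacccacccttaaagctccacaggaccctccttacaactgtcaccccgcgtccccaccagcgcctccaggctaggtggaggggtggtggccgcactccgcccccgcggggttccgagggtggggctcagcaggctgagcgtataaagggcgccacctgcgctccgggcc
The windows were searched on both strands for this NF-κB motif, AP-1 (TGANTCA), SMAD (CAGAC) and STAT (TTC, any 4 bases, GAA). The window of Scnn1b held 2 NF-κB matches, 53 to 44 and 31 to 22 bases before the gene, and no match to the other motifs, and the windows of Scnn1g and Aqp3 held none of the 4. Of 32851 mouse promoters, in the 250 bases before the start, 17.6% held the NF-κB letters, 6.75% those of AP-1, 42.2% those of SMAD and 5.85% those of STAT. No motif overlapped another in these windows. Of the 10 members, 6 were in the promoter table.

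Scnn1b had the lowest level of the 3 subunits in vehicle and moved most. In the epithelial vehicle libraries of mice 1 to 4 it was at 3.89, 3.37, 6.35 and 2.74 CPM, with EC at 0.485, 1.09, 0.515 and 0.605 CPM, with IPFc at 1.52, 2.16, 1.87 and 1.40 CPM, and with TGF-β, in mice 2 to 4, at 35.0, 27.5 and 28.0 CPM. The 4 groups did not overlap. Scnn1b fell with EC (log2 fold change -2.58 ± 0.36, SE, adjusted p = 2.23e-04) and with IPFc (-1.20 ± 0.27, 0.00504), in 4 of 4 mice each, and rose with TGF-β (2.75 ± 0.19, 7.28e-29) in 3 of 3 mice. The EC values rest on 7 to 15 reads a library. Scnn1b was not called lower with EC than with IPFc (-1.37 ± 0.41, 0.0833).

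Scnn1g followed Scnn1b with smaller changes. It was at 10.8, 8.01, 14.6 and 12.3 CPM in vehicle, at 3.67, 5.16, 4.92 and 5.88 CPM with EC, at 5.83, 5.54, 8.14 and 7.30 CPM with IPFc, and at 30.9, 29.5 and 23.4 CPM with TGF-β in mice 2 to 4. EC and vehicle did not overlap, IPFc reached just into the range of vehicle, and TGF-β stood above all other libraries. Scnn1g fell with EC (-1.19 ± 0.18, adjusted p = 6.19e-04) and IPFc (-0.76 ± 0.16, 0.00187) and rose with TGF-β (1.18 ± 0.16, 1.30e-10), in every mouse. Alveolar markers were called lower more often than higher with all 3 treatments, also with TGF-β, where Scnn1b and Scnn1g rose. With EC 6 of 9 tested markers of alveolar type 1 cells were lower and 0 higher (median -0.65), and 6 of 10 of type 2 cells lower and 1 higher (-0.47). With IPFc these were 7 lower and 0 higher of 10 (-0.45) and 4 lower and 1 higher of 10 (-0.24), and with TGF-β 4 lower and 3 higher of 10 (-0.17) and 10 lower of 10 (-1.43). The part of alveolar cells in the ENaC values was not tested.

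The α subunit, which the channel needs to open at all, fell with both cocktails as β and γ did, but was not called with TGF-β. Scnn1a was at 147, 137, 195 and 159.5 CPM in vehicle, at 88.4, 82.3, 120.4 and 65.7 CPM with EC, at 108, 119, 126 and 138 CPM with IPFc, and at 167, 145 and 138 CPM with TGF-β. It fell with EC (-0.83 ± 0.10, adjusted p = 5.19e-05) and with IPFc (-0.38 ± 0.08, 0.00435), lower in 4 of 4 mice each, and the cocktails were not called different from each other (-0.45 ± 0.13, 0.0694). All 12 alternatives made the call with EC. The call with IPFc was lost in 4 of 12, among them the fits without the block and without mouse 1. With TGF-β the log2 fold change of Scnn1a was -0.22 ± 0.10 (95% interval -0.42 to -0.02, adjusted p = 0.0693), with mouse 2 above and mice 3 and 4 below their vehicle cultures. Per kilobase of exon, the β subunit was at 3.53% ± 0.89 (SD, n = 4) of the level of the α subunit in vehicle, at 1.13% ± 0.568 with EC, at 2.00% ± 0.457 with IPFc and at 28.2% ± 1.34 (n = 3) with TGF-β. The γ subunit was at 9.15% ± 1.07, 7.56% ± 2.96, 7.02% ± 0.973 and 24.0% ± 2.19 of α in the same order. With TGF-β the β subunit thus stood above γ in level per kilobase in each of the 3 libraries, and below it in each of the 12 others.

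**Figure D3:**
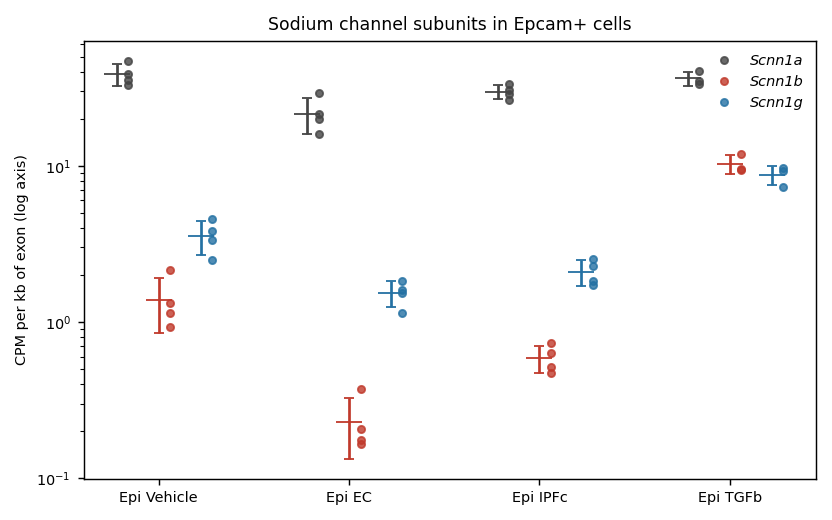
Level of the 3 ENaC subunits in epithelial libraries, as CPM per kilobase of exon on a log axis. Points are libraries, and dashes with bars are means with SD (n = 4, with TGF-β n = 3). With TGF-β, Scnn1b and Scnn1g stand at 10.2 and 8.72, above their level in any other epithelial group, while Scnn1a stays between 33.4 and 40.5.

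Fibroblast markers rose beside Scnn1b and Scnn1g in the epithelial TGF-β libraries (11 of 11 tested, median log2 fold change 3.99). Fibroblast TGF-β libraries held 0.487 to 1.72 CPM of Scnn1b and 0.184 to 0.90 CPM of Scnn1g. When the estimated fibroblast share was subtracted from each epithelial library, the rise with TGF-β remained called for Scnn1b (3.27, adjusted p = 2.45e-05) and Scnn1g (1.63, 5.73e-04). At the fibroblast levels given, subtraction could take away little of either gene, and the part of fibroblast cells in the rise was not tested. The falls of Scnn1a (-0.80, 0.0273) and Scnn1b (-2.73, 0.0300) with EC also remained called. The fall of Scnn1g with EC (-1.13, 0.0671) and the falls of Scnn1a, Scnn1b and Scnn1g with IPFc (-0.30, 0.202, then -1.13, 0.119, and -0.69, 0.0636) no longer passed.

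Among the chloride pathway genes, Cftr (chr6:18170687-18322770) encodes the cAMP-regulated channel that is mutated in cystic fibrosis, and Ano1 (chr7:144588549-144752026) the calcium-activated chloride channel TMEM16A. Slc26a9 (chr1:131744022-131771504) encodes an anion transporter that works beside CFTR, and Slc12a2 (chr18:57878512-57946821) the cotransporter NKCC1, which loads the cell with chloride. Of these 4, EC called Ano1, IPFc called Slc26a9, and TGF-β called all 4.

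Cftr was at 28.7, 23.2, 23.8 and 36.2 CPM in vehicle, at 35.3, 32.1, 34.2 and 34.7 CPM with EC, at 21.6, 22.6, 28.4 and 31.5 CPM with IPFc, and at 16.6, 15.5 and 15.2 CPM with TGF-β. The TGF-β libraries lay below all others. Cftr fell with TGF-β (-0.88 ± 0.15, adjusted p = 1.29e-07) in 3 of 3 mice, and was 0.33 ± 0.11 with EC (95% interval 0.10 to 0.57, 0.125) and -0.10 ± 0.12 with IPFc (-0.34 to 0.14, 0.810). With EC, Cftr was at 1.23 to 1.44 times the vehicle level in mice 1 to 3 and at 0.958 times in mouse 4, and without mouse 4 it was called higher (0.44, 5.77e-04). Subtracting the fibroblast share left the fall with TGF-β at -0.45 (0.124), no longer called.

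Ano1 was at 247, 260.0, 299.5 and 287 CPM in vehicle, at 193, 164, 256 and 159.8 CPM with EC, at 233, 239, 313 and 299.5 CPM with IPFc, and at 352, 379 and 347 CPM with TGF-β. It fell with EC in 4 of 4 mice (-0.49 ± 0.10, adjusted p = 0.00590), and was lower with EC than with IPFc (-0.47 ± 0.11, 0.0214), a comparison in which 2 of 10 members and 3.54% of all genes were called. The fall with EC was not called after subtraction (-0.45, 0.186) or without the block, and the difference from IPFc was lost in 3 of 11 alternatives, without the block, without mouse 2 and without mouse 3 (adjusted p up to 0.318). With TGF-β it rose by a small amount (0.24 ± 0.09, 0.0277), and the 3 libraries lay above all others. The rise was not called in 4 of 12 alternatives, and it was 0.67 (0.00116) after subtraction of the fibroblast share. With IPFc the log2 fold change was -0.03 (95% interval -0.18 to 0.13).

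Slc26a9 was at 100.1, 96.9, 114 and 83.6 CPM in vehicle, at 84.3, 88.1, 91.4 and 43.0 CPM with EC, at 70.9, 91.8, 81.4 and 74.7 CPM with IPFc, and at 79.3, 78.3 and 57.9 CPM with TGF-β. In all 11 treated libraries it was below the vehicle culture of the same mouse. It was called with IPFc (-0.31 ± 0.09, adjusted p = 0.0293) and TGF-β (-0.56 ± 0.11, 2.46e-06) and not with EC (-0.38 ± 0.11, 0.0660). The call with IPFc was lost in 6 of 12 alternatives. Subtracting the fibroblast share left the fall with TGF-β at -0.13 (0.50).

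Slc12a2, at 562 to 756 CPM in vehicle, 619 to 749 CPM with EC, 585 to 744 CPM with IPFc and 539 to 627 CPM with TGF-β, had overlapping ranges in all 4 groups. Its log2 fold change was 0.12 ± 0.09 with EC (95% interval -0.07 to 0.32), 0.02 ± 0.08 with IPFc (-0.14 to 0.19) and -0.23 ± 0.09 with TGF-β (-0.41 to -0.05, adjusted p = 0.0324). The fall with TGF-β turned to 0.18 after subtraction of the fibroblast share (0.356), and 6 other alternatives of 12 did not call it.

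Atp12a (chr14:56364669-56388551) encodes the catalytic subunit of the nongastric proton-potassium pump. It was the only member called higher with both cocktails. Reads were few, 3 to 16 a library in vehicle, 30 to 77 with EC, 22 to 52 with IPFc and 0 to 4 with TGF-β. Atp12a was at 0.205, 1.12, 0.541 and 1.29 CPM in vehicle, at 2.98, 5.6, 4.01 and 2.60 CPM with EC, and at 1.76, 1.46, 2.91 and 4.04 CPM with IPFc. Neither cocktail overlapped with vehicle. It rose with EC (2.38 ± 0.37, adjusted p = 7.64e-04) and IPFc (1.74 ± 0.41, 0.00728) in 4 of 4 mice each. With TGF-β it was at 0, 0.243 and 0.483 CPM in mice 2 to 4, lower in 3 of 3 mice (-2.37 ± 0.90, 0.0253), a call that 5 of 12 alternatives did not make. Subtracting the fibroblast share gave 2.45 with EC (adjusted p = 0.0634) and 1.86 with IPFc (0.0768), neither called.

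Aqp3 encodes an aquaglyceroporin of the basolateral membrane, known in the airway from basal cells. Aqp3 was at 72.6, 179.8, 116 and 6.37 CPM in vehicle, at 53.9, 99.9, 47.1 and 11.6 CPM with EC, at 49.5, 92.7, 45.9 and 4.82 CPM with IPFc, and at 10.6, 6.64 and 0.967 CPM with TGF-β. Mouse 4 was lowest in each group, and its vehicle library lay below those of mice 1 to 3 with either cocktail. With TGF-β Aqp3 fell to 0.0572 to 0.152 times the vehicle level of the same mouse (-4.12 ± 0.16, adjusted p = 1.28e-55). It also fell with IPFc in 4 of 4 mice (-0.90 ± 0.11, 3.40e-06), and was not called with EC (-0.57 ± 0.21, 0.176), where mouse 4 rose 1.82 times and mice 1 to 3 lay at 0.405 to 0.742 times vehicle. Without mouse 4 it was called lower with EC (-0.86, 8.51e-29).

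Basal cell markers moved with Aqp3. The summed CPM of 7 basal markers was 31.7 to 54.1 in the vehicle, EC and IPFc libraries of mouse 4 and 321 to 1206 in those of mice 1 to 3, and with TGF-β it was 123, 76.0 and 19.8 in mice 2 to 4. Krt5, a keratin of basal cells, was at 13.4 to 732 CPM in vehicle and 1.81 to 61.8 CPM with TGF-β. Of the 7 markers, TGF-β called 6 lower and 0 higher, IPFc 4 lower and 1 higher, and EC 2 lower and 0 higher. Aqp3 was at 0.133 to 0.214 times the marker sum in all 12 vehicle, EC and IPFc libraries and at 0.0488 to 0.0874 times with TGF-β. The sum includes Pdpn, which is also on the list of alveolar type 1 markers. In mice 2 to 4, Aqp3 and Krt5 were at 179.8 and 732, 116 and 371, and 6.37 and 13.4 CPM in vehicle. With TGF-β they were at 10.6 and 61.8, 6.64 and 28.6, and 0.967 and 1.81 CPM. Relative to Krt5 alone, Aqp3 was lower with TGF-β than in vehicle in mice 2 and 3 but not in mouse 4. The part of basal cell number in the Aqp3 values was not tested.

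**Figure D4:**
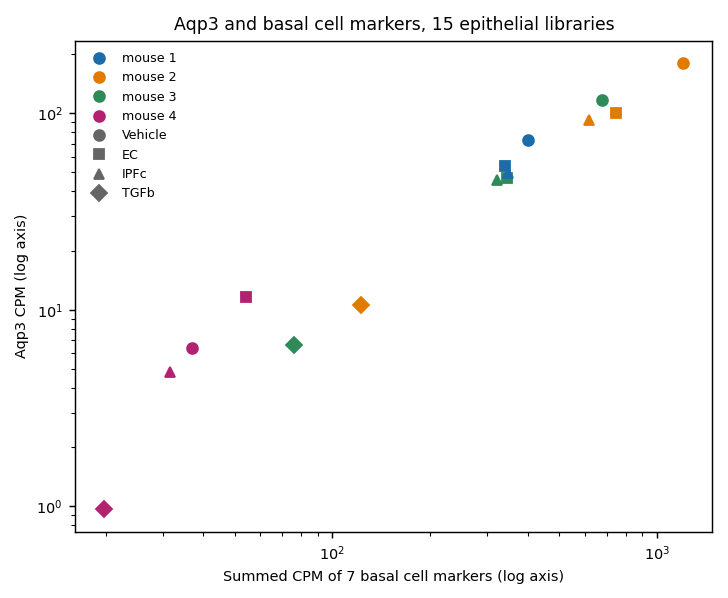
Aqp3 against the summed CPM of 7 basal cell markers in the 15 epithelial libraries, both on log axes, coloured by mouse with symbols for treatment. The libraries of mouse 4 lie at the lower left, and the TGF-β libraries (diamonds) lie below the others in Aqp3 for their marker sum.

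Aqp4 (chr18:15389394-15410982) encodes a water channel of the basolateral membrane of airway cells. Of the 3 treatments, IPFc was the one that called it. Aqp4 was at 35.5, 37.6, 39.4 and 24.1 CPM in vehicle, at 35.0, 39.8, 41.9 and 25.2 CPM with EC, at 13.3, 18.3, 17.0 and 5.36 CPM with IPFc, and at 36.2, 48.8 and 35.7 CPM with TGF-β. The IPFc libraries lay below all others, and they held 0.222 to 0.487 times the level of the vehicle culture of their mouse. Aqp4 fell with IPFc (-1.42 ± 0.14, adjusted p = 3.45e-08), a call that all 12 alternatives made. It was 0.08 ± 0.10 with EC (95% interval -0.14 to 0.29, 0.826) and 0.15 ± 0.13 with TGF-β (-0.09 to 0.40, 0.355), which became 0.60 (0.0169) after subtraction of the fibroblast share. The difference itself was tested between the treated groups, and Aqp4 was higher with EC than with IPFc (1.5 ± 0.16, 1.04e-05) and lower with IPFc than with TGF-β (-1.5 ± 0.21, 6.02e-06), the latter lost with robust dispersion (0.0884). IPFc contains TGF-β, whose concentration in the cocktail the labels do not give.

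Compared directly with TGF-β, 7 of 10 members differed with EC, where 32.9% of all genes were called, and 8 of 10 with IPFc, where 37.0% were. Scnn1b was lower than with TGF-β by far in both (-5.19 ± 0.29 for EC, adjusted p = 1.60e-14, and -3.89 ± 0.21 for IPFc, 5.27e-12), and so was Scnn1g (-2.21 ± 0.22, 5.44e-09, and -1.85 ± 0.18, 7.05e-08). Aqp3 (3.28 ± 0.21, 2.62e-13, and 3.07 ± 0.16, 6.18e-12), Cftr (1.27 ± 0.18, 1.51e-06, and 0.94 ± 0.15, 4.09e-05) and Atp12a (4.53 ± 0.65, 2.74e-06, and 3.93 ± 0.62, 3.33e-05) were higher with either cocktail. Scnn1a and Ano1 were lower with EC than with TGF-β (-0.60 ± 0.16, 0.00487, and -0.74 ± 0.16, 3.97e-04), and Slc12a2 and Slc26a9 higher with IPFc than with TGF-β (0.39 ± 0.08, 5.35e-04, and 0.37 ± 0.10, 0.00556), the latter lost in 4 of 11 alternatives. All 11 tested fibroblast markers were lower with either cocktail than with TGF-β (median -3.13 for EC and -2.88 for IPFc), and their part in these differences was not tested.

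In the fibroblast libraries the question was whether CCL206 cells carry these genes themselves. In vehicle 9 of 10 members were higher in the epithelial fraction, where 46.1% of all genes differed. The exception was Scnn1b (log2 difference 0.65 ± 0.40, adjusted p = 0.177). With EC 7 members were higher (30.1% of all genes differed), with IPFc 9 (53.4%) and with TGF-β 9 (46.1%). Not called were the 3 ENaC subunits with EC, Scnn1b with IPFc and Atp12a with TGF-β.

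The gap between fractions was wide for Aqp4 and Cftr with TGF-β. Aqp4 was at 36.2, 48.8 and 35.7 CPM in epithelial libraries of mice 2 to 4 and at 0.0613 to 0.244 CPM, 1 to 3 reads, in the fibroblast libraries (log2 difference 8.39 ± 0.34, adjusted p = 3.59e-18). In the same libraries Cftr was at 15.2 to 16.6 CPM against 0 to 1.03 CPM (5.54 ± 0.47, 4.01e-11).

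In the vehicle, EC and IPFc cultures, Scnn1b was the member with the highest fibroblast level relative to its epithelial level, and with TGF-β it was Aqp3, at 13.4%, 23.3%, 24.0% and 149% in mice 1 to 4, the last against an epithelial library with 8 reads. In fibroblast libraries Scnn1b was at 1.5, 4.02 and 3.08 CPM in vehicle (mice 1, 3 and 4), and at 0.587, 1.08, 1.16 and 1.46 CPM with EC, 0.367, 1.27, 1.91 and 1.24 CPM with IPFc and 0.487, 1.72, 1.16 and 1.38 CPM with TGF-β (mice 1 to 4). As a percent of the epithelial library of the same mouse, or of the group mean where that library was not analysed, Scnn1b reached 71.3% in vehicle, 171% with EC, 68.5% with IPFc and 3.92% with TGF-β on average. In all 15 fibroblast libraries this percent lay above the highest of the epithelial reference markers of that library. These values rest on 3 to 52 reads a library. By the same measure Scnn1a lay above the markers in 13 of 15 libraries, Slc26a9 in 12, Scnn1g and Aqp3 in 6 each, Cftr in 5, Ano1 in 3, Atp12a in 1 and Aqp4 in 0 of 15. Slc12a2 lay above them in 9 of 15, at 49.7 to 73.5 CPM in the fibroblast TGF-β libraries, where epithelial RNA was lowest. The median summed CPM of 10 alveolar type 2 markers was 5433 in fibroblast and 13180 in epithelial vehicle libraries. It was 6793 and 9679 with EC, 5042 and 10700 with IPFc and 398.5 and 4283 with TGF-β. For 10 type 1 markers it was 940 and 1479, 967 and 1006, 810 and 1053, and 712 and 1310 in the same order. Epithelial shares were 18.7%, 40.4%, 16.2% and 1.92%. The part of alveolar cells in the fibroblast values was not tested.

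**Figure D5:**
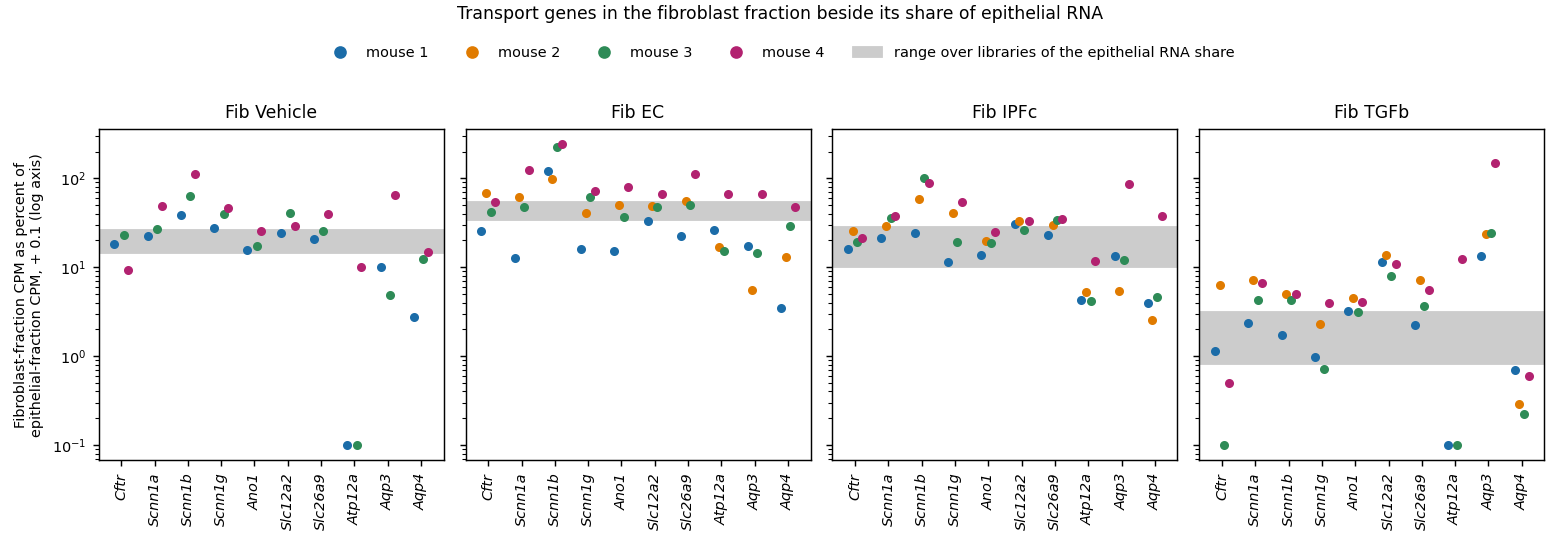
Level of each member in the fibroblast libraries as a percent of the matching epithelial library, plus 0.1, on a log axis, coloured by mouse. The grey band spans the estimated share of epithelial RNA over the libraries of a group, 14.4% to 25.9% in vehicle, 34.2% to 53.6% with EC, 9.97% to 28.2% with IPFc and 0.807% to 3.10% with TGF-β. Scnn1b lies above the band in every library of the vehicle and EC groups, and Aqp4 lies within or below it in all but 1 of the 15 libraries.

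Against vehicle, EC raised 5 of 10 members in the fibroblast fraction, where 10.1% of all genes were called, IPFc lowered 1 (1.27%), and TGF-β lowered 9 of the 9 tested (19.9%). The share of epithelial RNA moved the same way, and the 12 epithelial markers were called 12 higher with EC, 0 with IPFc and 12 lower with TGF-β. After subtraction of the epithelial share 8 members could be tested, without Atp12a and Aqp4, of which 5 were called with TGF-β and 0 with either cocktail. Over all genes that fit called 1599 with TGF-β (3582 before) and 34 with IPFc (229 before). With EC that fit called 0 of 17422 genes, so that it tells nothing of single members, and with IPFc the fold change of Scnn1g was -2.17 (adjusted p = 0.561). Without mouse 4, EC raised 1 member (Cftr), and without mouse 3 it raised 3 (Cftr, Slc12a2 and Atp12a). Over all alternatives, 0 to 1874 genes were called for this comparison (1831 as reported). The fibroblast EC library of mouse 1 had the fewest reads of all libraries (5113828) and stood apart from its group. Chi-square per degree of freedom was 78.8 to 83.2 between it and the other EC libraries, and 11.1 to 31.0 among those. Mouse 2 has no fibroblast vehicle culture here, so the block takes up its treated libraries and the fold changes rest on mice 1, 3 and 4.

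With EC the members called were Cftr (1.69 ± 0.26, adjusted p = 1.46e-08), Aqp4 (1.42 ± 0.33, 4.74e-04), Slc12a2 (0.78 ± 0.18, 5.71e-04), Ano1 (0.56 ± 0.19, 0.0404) and Atp12a. The call of Ano1 was lost in 7 of 12 alternatives. Ano1 was at 0.758 times vehicle in mouse 1 and at 1.84 and 1.74 times in mice 3 and 4. Cftr was at 5.19, 5.49 and 3.33 CPM in vehicle and at 9.00, 21.8, 14.4 and 18.9 CPM with EC, without overlap. Atp12a had 2 reads in 3 vehicle libraries and 59 in 4 EC libraries (adjusted p = 0.00131), a ratio of 22.6 (95% counting interval 5.97 to 191). Scnn1b (-1.32 ± 0.48, 0.0578) and Scnn1g (-0.86 ± 0.36, 0.123) went the other way and were not called, while Slc26a9 (0.47 ± 0.20, 0.129) and Aqp3 (0.62 ± 0.29, 0.166) missed the threshold on the higher side. Scnn1a (-0.27 ± 0.20, 0.463) was not called either. It was at 0.343 times vehicle in mouse 1 and at 1.08 and 1.04 times in mice 3 and 4. With IPFc the member called was Scnn1g (-1.38 ± 0.34, 0.00714), at 2.99, 5.80 and 5.70 CPM in vehicle and at 0.660, 2.25, 1.55 and 3.95 CPM with IPFc.

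With TGF-β Cftr fell in the fibroblast libraries (-5.81 ± 0.64, adjusted p = 5.34e-18), to 0.162, 1.03, 0 and 0.060 CPM in mice 1 to 4. It rests on 0 to 15 reads a library, and the fold change, to which mouse 2 does not add, ran from -6.69 to -3.78 over the alternatives. Aqp4 (-4.01 ± 0.67, 4.11e-08), Scnn1g (-3.38 ± 0.48, 2.57e-11), Slc26a9 (-3.35 ± 0.24, 4.33e-43) and Scnn1a (-3.03 ± 0.20, 2.14e-47) fell too. Smaller falls were those of Ano1 (-1.99 ± 0.19, 5.37e-24), Aqp3 (-1.96 ± 0.37, 1.42e-06), Slc12a2 (-1.60 ± 0.17, 7.75e-20) and Scnn1b (-1.37 ± 0.46, 0.0192). After subtraction of the epithelial share Ano1 turned to 2.78 (0.0564) and Aqp3 to 1.71 (0.437), and Slc12a2 was at -0.33 (0.664), none of them called. Atp12a, with 1 read in the 4 TGF-β libraries, was below the filter. The median epithelial marker fell by 4.12 on the same scale.

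The difference between fractions in the response was tested as an interaction with the mouse as a block within each fraction. With EC it was called for 5 of 10 members (5.06% of all genes), each with the lower log2 fold change in the epithelial fraction, Aqp4 (-1.37 ± 0.25, adjusted p = 0.00371), Cftr (-1.34 ± 0.30, 0.0139), Ano1 (-1.03 ± 0.25, 0.0223), Slc26a9 (-0.84 ± 0.22, 0.0385) and Slc12a2 (-0.62 ± 0.17, 0.0440). These calls dropped to 0 members without mouse 3, 1 without mouse 4 and 2 without mouse 2. With IPFc 0 of 10 were called by edgeR (0.414% of all genes) and 0 by DESeq2, and 1 member had an unadjusted p under 0.05 (Aqp3, -0.83 ± 0.24, adjusted p = 0.174). With TGF-β 9 of 10 were called (26.2%), 8 with the higher log2 fold change in the epithelial fraction, from Slc12a2 (1.43 ± 0.20, 9.97e-07) to Cftr (4.99 ± 0.57, 1.75e-08), beside a median of 0.26 over all genes. Aqp3 was the exception (-2.09 ± 0.36, 2.86e-05), with the stronger fall in the epithelial fraction. Among the 8, Cftr, Slc26a9 and Slc12a2 were called lower in both fractions, with the smaller fall in the epithelial one. Their fold changes, epithelial then fibroblast, were -0.88 and -5.81, -0.56 and -3.35, and -0.23 and -1.60. Scnn1a was at -0.22 and -3.03, and Aqp4 at 0.15 and -4.01. Scnn1b, Scnn1g and Ano1 were called higher in the epithelial and lower in the fibroblast fraction.

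Other genes of salt and water transport were read from lists, in the epithelial fraction against vehicle. For every list, the share called over all tested genes was 4.67% with EC, 5.94% with IPFc and 41.7% with TGF-β. With TGF-β, the anion and the water channel lists had a smaller share called than all genes. No list was tested against these shares. Of 16 tested anion channels and exchangers besides the members, EC called 1 higher and 1 lower and IPFc 3 higher and 1 lower, and of 17 tested, TGF-β called 2 higher and 3 lower. Slc26a4, pendrin, which exchanges chloride for bicarbonate, rose with EC from 4.77 ± 0.94 to 29.6 ± 7.97 CPM (SD, n = 4 each; log2 fold change 2.63 ± 0.16, adjusted p = 1.10e-08) and with IPFc to 241 ± 57.8 CPM (5.65 ± 0.14, 1.42e-21). Clca1, a secreted protein that raises the current through the Ano1 channel, rose with IPFc from 0 to 0.295 CPM in the vehicle libraries to 39.6 to 141 CPM (9.14 ± 0.19, 9.16e-24). Slc4a2, an anion exchanger of the basolateral side, rose with IPFc too (0.43 ± 0.08, 3.96e-04). Slc26a2, a sulfate transporter, was lower in all 3 comparisons (-0.38 ± 0.10 with EC, 0.0289, -0.35 ± 0.08 with IPFc, 0.00272, and -1.33 ± 0.10 with TGF-β, 4.65e-26).

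Of the genes of sodium uptake and its control, EC called 1 higher and 3 lower of 20 tested, IPFc 2 higher and 4 lower of 21, and TGF-β 4 higher and 13 lower of 21. Bpifa1, the secreted protein SPLUNC1 that inhibits ENaC, was at 205 to 529.5 CPM in vehicle, and fell with EC (-1.06 ± 0.09, adjusted p = 1.50e-06), rose with IPFc (1.17 ± 0.08, 1.29e-11) and fell with TGF-β (-3.25 ± 0.11, 3.27e-62). Nedd4l, the ubiquitin ligase that removes ENaC from the membrane, fell with EC (-0.37 ± 0.09, 0.0234) and IPFc (-0.51 ± 0.08, 1.37e-04). With TGF-β, Sgk1, the kinase that counters Nedd4l, rose from 61.9 ± 3.32 (n = 4) to 213 ± 15.2 CPM (n = 3; 1.65 ± 0.10, 2.01e-32), and Hsd11b2, which inactivates glucocorticoids in aldosterone target cells, from 0.428 ± 0.310 to 7.33 ± 2.24 CPM (4.46 ± 0.43, 3.72e-18). Among those that fell with TGF-β were Tmprss4, a serine protease that can cleave ENaC (-2.33 ± 0.14, 5.02e-35), and Atp1b1, the β subunit of the sodium-potassium pump (-1.42 ± 0.09, 3.03e-30).

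Of the tested potassium channels, EC called 0 higher and 3 lower, IPFc 1 higher and 1 lower and TGF-β 3 higher and 5 lower, of 9 each. Kcnk2, the background potassium channel TREK-1, fell with EC from 76.3 ± 13.3 to 25.9 ± 4.75 CPM (-1.54 ± 0.12, adjusted p = 2.71e-07) and with IPFc (-0.70 ± 0.09, 3.57e-06). Kcnj15, an inward rectifier, fell with EC (-0.96 ± 0.12, 6.04e-05) and TGF-β (-1.36 ± 0.12, 2.97e-20) and rose with IPFc (1.31 ± 0.10, 7.32e-11). Kcnn4, a calcium-activated channel, rose with TGF-β (1.18 ± 0.21, 7.57e-07).

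Of the other water channels, EC called 0 higher and 2 lower of 5 tested, IPFc 1 higher and 2 lower of 6, and TGF-β 0 higher and 2 lower of 6. Aqp5, the water channel of the apical membrane of alveolar type 1 cells, was at 1171 to 1485 CPM in vehicle and fell with EC (-0.37 ± 0.08, adjusted p = 0.0102), IPFc (-0.23 ± 0.07, 0.0497) and TGF-β (-1.84 ± 0.09, 9.31e-42). Aqp11, an aquaporin of intracellular membranes, rose with IPFc from 1.58 ± 0.514 to 7.85 ± 1.05 CPM (n = 4 each; 2.34 ± 0.24, 5.81e-08). Of 11 tested genes of acid and bicarbonate transport, EC called 1 higher and 2 lower, IPFc 4 higher and 1 lower and TGF-β 1 higher and 7 lower. Atp6v1b1, a subunit of the vacuolar proton pump, fell with EC (-1.38 ± 0.22, 8.24e-04) and TGF-β (-3.74 ± 0.33, 2.43e-20) and rose with IPFc (2.60 ± 0.12, 2.24e-15). Atp6v0a4 of the same pump went the same way, lower with EC (-1.21 ± 0.21, 0.00188) and TGF-β (-2.07 ± 0.27, 3.12e-11) and higher with IPFc (0.58 ± 0.16, 0.0289). Car2, a carbonic anhydrase, rose with IPFc (1.02 ± 0.13, 2.81e-06) and fell with TGF-β (-0.90 ± 0.19, 2.69e-05).

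Of 11 tested regulators of channel trafficking, EC called 0 higher and 2 lower, IPFc 1 higher and 4 lower, and, of 10 tested, TGF-β 3 higher and 5 lower. Wnk4, a kinase that controls chloride cotransporters such as NKCC1, fell with all 3, from 46.2 ± 5.09 CPM in vehicle (n = 4) to 25.8 ± 7.82 with EC (n = 4; -0.86 ± 0.13, adjusted p = 6.95e-04), 20.5 ± 2.82 with IPFc (n = 4; -1.19 ± 0.12, 2.91e-08) and 8.57 ± 0.683 with TGF-β (n = 3; -2.53 ± 0.15, 1.62e-35). Pulmonary ionocytes, rare cells rich in Cftr, left little trace. Of 6 ionocyte markers Foxi1, Stap1 and Bsnd had 0 reads in all 15 epithelial libraries, and Ascl3 was at 0.175 CPM at most, while Atp6v1b1, also on this list, gave nearly all of the marker sum, 28.8 to 80.1 CPM with IPFc against 4.27 to 12.8 CPM in vehicle.

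The fibroblast share differs between these libraries too. Over the 15 epithelial libraries, which share mice and treatments, Scnn1b and Scnn1g had a Pearson r of 0.96 on log2 CPM, given as a description. Among 10562 genes, those most like Scnn1b were Col12a1 (0.97), Sparc (0.97) and Col4a4 (0.97), and those most like Scnn1g were Capn2 (0.96), Scnn1b itself (0.96) and Col4a3 (0.95). Aqp3 was closest to Krt5 (0.98), Ptpn18 (0.98) and Krt15 (0.97), of which Krt5 and Krt15 are basal cell keratins. Cftr was closest to Gk (0.97), Adipor1 (0.97) and Agpat5 (0.94), Slc26a9 to Ptprf (0.98), Sipa1l3 (0.94) and Unc13b (0.94), and Ano1 to Sfta3-ps (0.95), Myo1e (0.94) and Nckap5 (0.93). Scnn1a was closest to Akap5 (0.90), Trim3 (0.89) and Plekhh2 (0.89), Slc12a2 to Cldn12 (0.91), Clcn3 (0.89) and Rrn3 (0.88), Atp12a to Fabp5 (0.90), Nus1 (0.87) and Orc1 (0.86), and Aqp4 to Eml2 (0.88), Orai2 (0.83) and Gdpd5 (0.82).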

How the data were processed

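Counts of reads per gene were taken as the authors deposited them, 1 file per library. Per the labels and the methods, libraries were made with a directional kit and reads trimmed with Trimmomatic 0.30, and the study used paired DESeq2 1.34.0. The labels name GRCm39 and the paper GRCm38 as the build, and the aligner and counting program are not given in the sources used here. Members were matched by symbol (1 row each) and placed by RefSeq GRCm38.p6. The members and the gene lists were chosen with earlier results of these data known.

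Counts were tested with edgeR 4.0.16 (R 4.3.3, quasi-likelihood, TMM) with the mouse as a block, on the libraries of each comparison, for genes whose raw counts averaged 1 or more. P-values were adjusted by Benjamini-Hochberg over all genes tested. The SE is the log2 fold change divided by the square root of F. Mice pair the libraries as the same animal, and deviations from group means correlated by 0.248 on average within a mouse and by -0.0799 between mice in epithelial libraries (fibroblast 0.264 and -0.0861). No 2 libraries of a group agreed within sampling noise (chi-square per degree of freedom 5.76 to 83.2). The share of the other fraction is the median ratio of markers at 50 CPM or more in their own fraction. Alternatives were DESeq2 1.42.0, its size factors, no filter, filterByExpr, no block, all libraries in one model, robust dispersion, each mouse left out, and the share subtracted from the counts. The steps were tested on simulated data. All 10 members are named. From the other lists, at most 3 called genes per direction are named, by smallest adjusted p.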

Additional observations from a re-analysis of the deposited data

Results flagged for a closer look

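Among 60 groups of 4 libraries, 6 held a library that stood apart from the others by Dixon's criterion, where chance gives about 1 in 20. Cftr was at 1.03 CPM in the fibroblast TGF-β library of mouse 2, above the other 3 libraries. Slc26a9 stood apart on the low side at 43.0 CPM in the epithelial EC library of mouse 4, at 18.6 CPM in the fibroblast EC library of mouse 1 and at 16.4 CPM in the fibroblast IPFc library of mouse 1. Atp12a stood apart on the high side at 0.465 CPM in the fibroblast IPFc library of mouse 4 and at 0.060 CPM, a single read, in the fibroblast TGF-β library of mouse 4.

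The response differed between fractions by the interaction test of edgeR. With EC the log2 difference, epithelial minus fibroblast, was -1.34 for Cftr, -1.03 for Ano1, -0.62 for Slc12a2, -0.84 for Slc26a9 and -1.37 for Aqp4. With TGF-β it was 4.99 for Cftr, 2.87 for Scnn1a, 4.2 for Scnn1b, 4.56 for Scnn1g, 2.30 for Ano1, 1.43 for Slc12a2, 2.84 for Slc26a9, -2.09 for Aqp3 and 4.38 for Aqp4, beside a median of 0.26 over all genes. The share of epithelial RNA in the fibroblast libraries moved in step, from 18.7% in vehicle to 40.4% with EC and 1.92% with TGF-β, and its part in these differences was not tested.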

How the results depend on the processing

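Subtracting the other fraction left 2 members called for EC, 2 for IPFc and 5 for TGF-β in epithelial libraries (5, 7 and 8 before), and 0, 0 and 5 in fibroblast libraries (5, 1 and 9 before), where 8 members were tested. Over all genes it called 173 for epithelial EC (830 before) and 3932 for epithelial TGF-β (7674 before). In fibroblast libraries it called 0, 34 and 1599 genes (1831, 229 and 3582 before). Without the replicate block, 1 member was called for epithelial IPFc, 1 and 0 for fibroblast EC and IPFc, 1 between epithelial EC and IPFc (2 before) and 0 for the EC interaction (5 before). Over all genes this gave 274 for epithelial IPFc (1065 before), 264 between EC and IPFc (627) and 4 for the EC interaction (920). DESeq2 called 3 members for fibroblast EC and 0 for fibroblast IPFc. With no filter, 2 were called for fibroblast IPFc, 5 between EC and IPFc and 1 for the IPFc interaction (0 before). Over all genes that fit called 951 between EC and IPFc (627 before) and 319 for the IPFc interaction (76 before). All libraries in one model gave 0 for fibroblast IPFc and 4 between EC and IPFc. Leaving out each mouse gave 5 to 9 for epithelial EC, 5 to 8 for epithelial TGF-β, 1 to 7 for fibroblast EC, 0 to 2 for fibroblast IPFc, 4 to 9 between fractions with EC, 1 to 3 between EC and IPFc and 0 to 7 for the EC interaction.

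Log2 fold changes that changed sign were, in epithelial IPFc, Cftr (0.0049 without mouse 1, leaving out each mouse -0.22 to 0.0049), Ano1 (0.00050 and 0.012 without mice 1 and 2, 0.051 with subtraction, leaving out each mouse -0.052 to 0.012) and Slc12a2 (-0.080 without mouse 3, up to 0.11). In epithelial TGF-β they were Scnn1a (0.21) and Slc12a2 (0.18) with subtraction and Aqp4 (-0.0065 without mouse 4, up to 0.32). In fibroblast EC they were Scnn1a (0.16 without mouse 1, down to -0.54) and, with subtraction, Slc12a2 (-0.74), Slc26a9 (-0.10) and Aqp3 (-0.11), and in fibroblast TGF-β, with subtraction, Ano1 (2.78) and Aqp3 (1.71). The cause was not tested. Over all alternatives 1228 of 1376 values kept direction and side of the threshold.

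Genes called over all genes ranged from 173 to 1522 for epithelial EC (830 as reported), 274 to 1549 for IPFc (1065) and 3932 to 7743 for TGF-β (7674), and in fibroblast libraries from 0 to 1874 (1831), 34 to 235 (229) and 1599 to 3619 (3582). Between fractions they ranged from 6029 to 10288 in vehicle (8514), 2507 to 9014 with EC (5436), 8367 to 10753 with IPFc (9782) and 5977 to 9402 with TGF-β (8486). They ranged from 264 to 951 between EC and IPFc (627), 3654 to 7764 between EC and TGF-β (5984) and 4666 to 7291 between IPFc and TGF-β (6752), and for the interactions from 4 to 1431 (920), 4 to 319 (76) and 3511 to 5315 (4862). In fibroblast comparisons the prior degrees of freedom were infinite, so adjusted p-values there lean on a spread shared by all genes. Atp12a, and Scnn1b in EC, rest on few reads a library.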
